A study of Mus musculus with 8 samples.

Results

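The 10 genes described here are the liver X receptors (LXR) and well known genes that these receptors switch on, among them genes that move cholesterol out of cells. They are Nr1h2 and Nr1h3 (the receptors LXR beta and LXR alpha), Abca1, Abcg1, Apoe, Pltp, Lpl, Mylip, Arl4c and Smpdl3a. They were chosen by symbol, as known receptors and targets, but with earlier results of these data known. All 10 were found by Ensembl identifier among the 34745 genes listed for each library. All 10 passed the filter on low counts, which kept 13186 genes. The RNA came from tumours of B16F10, a mouse melanoma line that was grown in culture and then injected subcutaneously into C57BL/6J mice. Each mouse was on a normal diet (ND, with 4 libraries numbered ND 1 to ND 4) or on a high cholesterol diet (HCD, with 4 libraries numbered HCD 1 to HCD 4). No other treatment is named in the labels, and the sources used here give neither the age of the mice nor the composition and length of the diets. The labels number the tumours but do not say whether each came from its own mouse, so p-values measure the spread between these samples only.

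LXR alpha and LXR beta are nuclear receptors that are switched on by oxysterols and by desmosterol, an intermediate of cholesterol synthesis. Each pairs with a retinoid X receptor (RXR) and binds direct repeats of the half-site AGGTCA spaced by 4 bases. Without a ligand the pair can hold corepressors on its targets, and with one it raises genes that export cholesterol, load it on lipoproteins and lower its uptake. In macrophages, which take up lipoproteins and dead cells, ABCA1, ABCG1 and APOE are well known to be under LXR control, so in a piece of tumour these genes can be read from both the cancer cells and the macrophages between them.

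The 8 libraries held 14599222 (ND 4) to 17722093 (HCD 4) counts. Melanocyte markers were abundant in each, with a summed level over 12 genes from 27970 to 32280 CPM (counts per 1000000, scaled with TMM factors), so the tumour label held. ND 2 to ND 4 stood apart in that 406 to 427 olfactory and vomeronasal receptor genes had counts there, against 8 to 13 in ND 1 and the HCD libraries. The labels name no batch, and the difference between ND 2 to ND 4 and HCD cannot be told apart from whatever set those libraries apart. Pairs of libraries of the same diet gave a chi-square of 14.5 to 37.6 times its degrees of freedom, where sampling noise alone gives about 1, so none was counted as a repeat. The share of counts from mitochondrial genes was 13.7% to 14.7% in ND and 11.4% to 12.9% in HCD.

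Per length, the targets spanned a wide range, and the receptors lay far apart within it. By the deposited FPKM (counts per kilobase of gene, scaled to the library's total), Apoe, the lipoprotein component that carries cholesterol away from cells, had the highest level of the 10, at 129.1 ± 20.03 FPKM (SD over 8 libraries, 104.2 to 161.8). Nr1h2 followed at 13.6 ± 2.00 FPKM and Mylip at 12.8 ± 0.863 FPKM, with overlapping ranges. Smpdl3a (8.61 ± 1.14 FPKM), Pltp (7.02 ± 1.67 FPKM) and Abca1 (5.07 ± 1.68 FPKM) formed the middle, each overlapping its neighbour. The low end held Lpl (1.42 ± 0.656 FPKM), Abcg1 (0.623 ± 0.222 FPKM), Arl4c (0.552 ± 0.211 FPKM) and Nr1h3 (0.350 ± 0.154 FPKM), and again each range overlapped the next. The 3 gaps with no overlap in FPKM were those between Apoe and Nr1h2, between Mylip and Smpdl3a, and between Abca1 and Lpl. The level of LXR beta was thus 38.7 times that of LXR alpha by FPKM.

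The order depended in part on the gene length used. The length behind the deposited FPKM, as the values imply it, was 0.576 (Abcg1) to 2.62 (Apoe) times the union of exons in GENCODE M21. With counts per kilobase of that union, an alternative chosen after seeing the data, the first 7 places stayed the same. Abcg1 moved from place 8 to place 10, behind Arl4c and Nr1h3, and the LXR beta to LXR alpha ratio was 48.8. On that scale Nr1h2 (35.2 ± 5.18) no longer overlapped Mylip (12.1 ± 0.818), while Mylip overlapped Smpdl3a (11.4 ± 1.51).

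**Figure D1:**
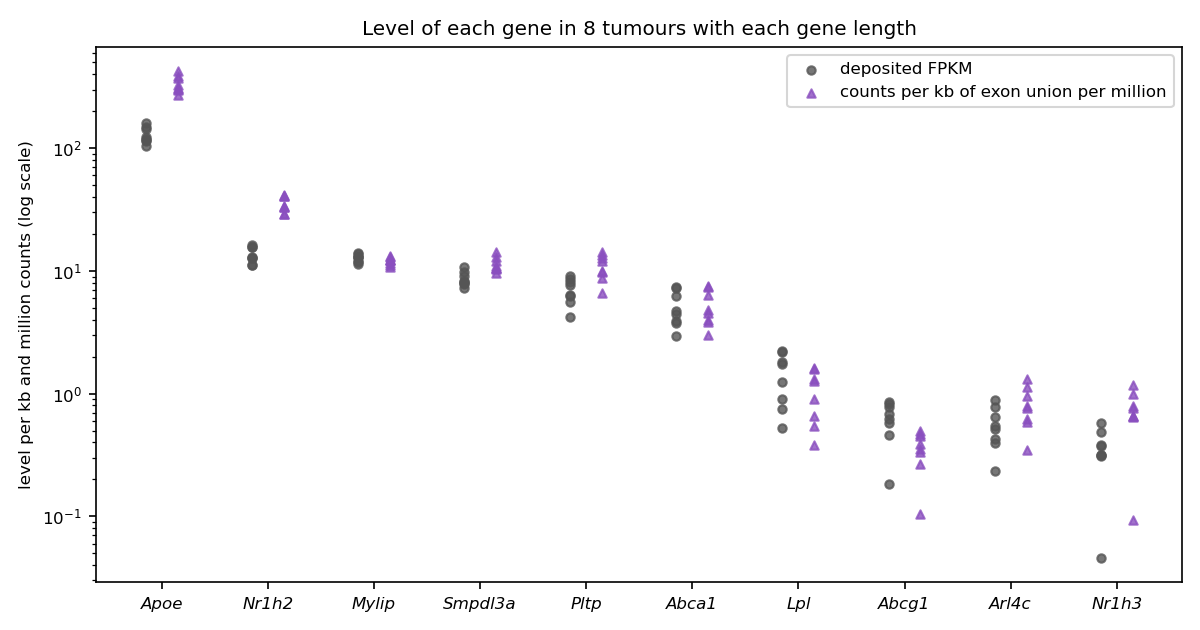
Level of each of the 10 genes in each of the 8 tumours, on a log scale, as deposited FPKM (circles) and as counts per kilobase of the GENCODE exon union, scaled to the library's total (triangles). Apoe lies above every other gene on both scales, and the lowest circle is Nr1h3 in ND 2, at 0.0456 FPKM.

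Diet was the study's comparison. 8 of the 10 genes had a higher mean in HCD (51.1% of all tested genes did), with a median log2 fold change of 0.44 against 0.00494 over all tested genes. Without ND 2 the median of the 10 was 0.20, with 8 of 10 still higher. After adjustment over all 13186 genes, 0 of the 10 passed 0.05 in edgeR's quasi-likelihood test, in which 24 genes (0.182%) passed. At an unadjusted p under 0.05, 4 of the 10 stood higher (Lpl, Abca1, Abcg1 and Arl4c) and 0 lower, where 7.21% of all tested genes stood higher and 7.49% lower. For 3 of them, Lpl, Abca1 and Abcg1, the highest ND library was below the lowest HCD library, a separation that 4.94% of tested genes showed in that direction. DESeq2 called 2 of the 10 (Lpl and Abca1, both higher), where it called 3.27% of genes. limma-voom called 0 of the 10 and 0.144% of genes, and edgeR without the filter on low counts called the same 2 and 0.406% of genes.

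**Figure D2:**
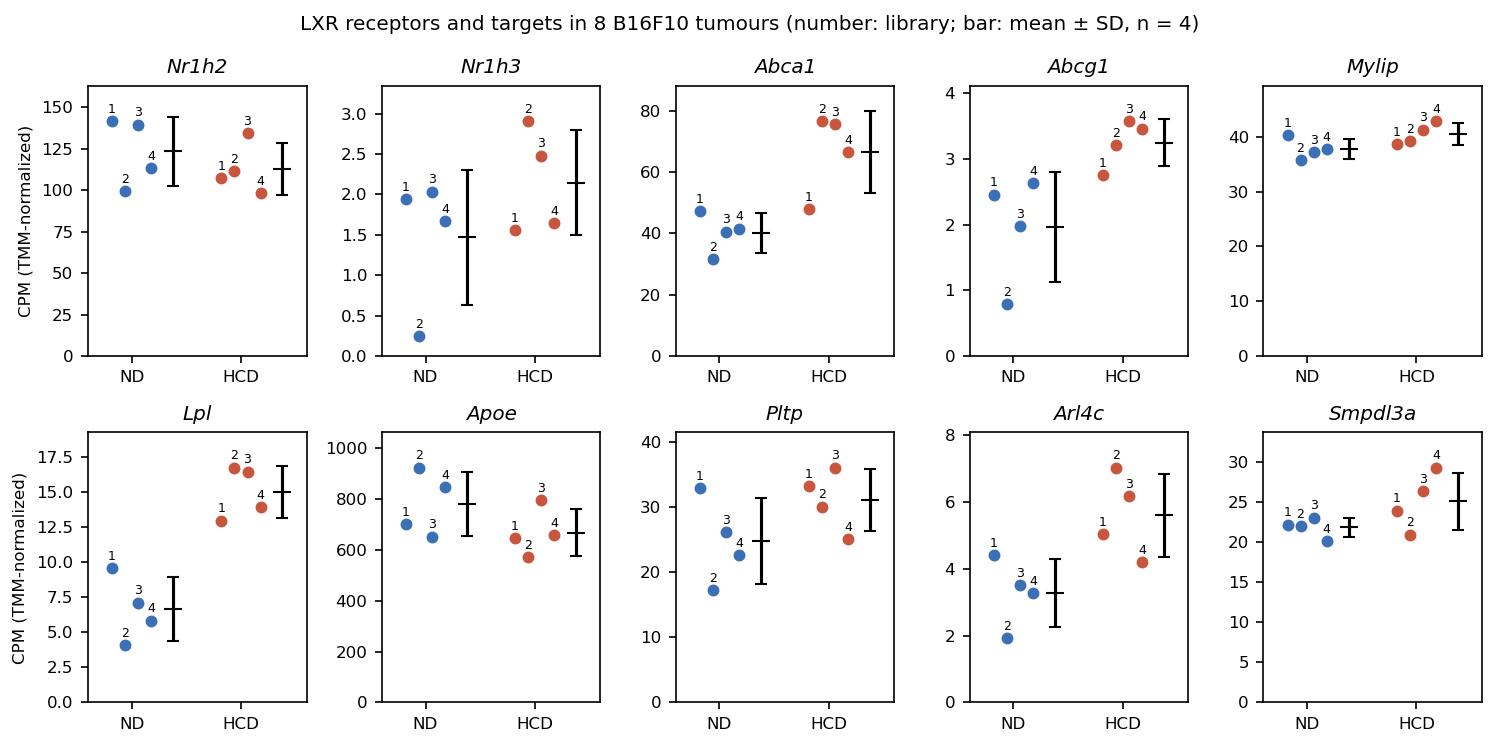
Normalized level in CPM of each gene in the 4 ND and 4 HCD tumours, each point labelled with its library number, with bars for the mean ± SD (n = 4). For Lpl, Abca1 and Abcg1 the groups do not overlap, and ND 2 is the lowest ND library in all plots except those of Apoe, where it is highest, and Smpdl3a.

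The receptors were not called. Nr1h2, LXR beta (chr7:44549616-44553951, minus strand, GRCm38), had 142, 99.4, 139.7 and 113 CPM in ND 1 to ND 4 and 107, 111, 134.6 and 98.1 CPM in HCD 1 to HCD 4. The groups overlapped almost fully, and the log2 fold change was -0.13 ± 0.131 (SE; edgeR adjusted p = 0.712). Nr1h3, LXR alpha (chr2:91184061-91202834, minus strand), is itself an LXR target in human macrophages. It had 34, 4, 33 and 24 counts in ND 1 to ND 4 and 26, 48, 43 and 29 counts in HCD 1 to HCD 4, or 1.95, 0.241, 2.04 and 1.67 CPM against 1.56, 2.91, 2.48 and 1.65 CPM. ND 2 alone lay far below the rest, and its 4 counts limit how well the gene could be measured. The log2 fold change was 0.54 ± 0.49 with all libraries (edgeR adjusted p = 0.671) and 0.19 without ND 2 (adjusted p = 0.823). Of its exons, 34 bases are shared with Gm13783, a transcript on the same strand with 2 counts in all.

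Both exporters had a higher mean in HCD, and neither passed the adjusted threshold. ABCA1 passes cholesterol and phospholipid to lipid-poor apolipoproteins, and Abca1 (chr4:53030787-53159895, minus strand) had 47.3, 31.5, 40.6 and 41.6 CPM in ND 1 to ND 4 and 47.9, 76.6, 75.7 and 66.4 CPM in HCD 1 to HCD 4. HCD 1 was barely above ND 1, and the other HCD libraries were clearly higher. The means were 40.2 ± 6.51 and 66.7 ± 13.3 CPM (SD, n = 4), a log2 fold change of 0.73 ± 0.162 (SE; edgeR adjusted p = 0.099). ABCG1 passes cholesterol to mature high density lipoprotein. Abcg1 (chr17:31057675-31117988, plus strand) was scarce, with 43, 13, 32 and 38 counts in ND 1 to ND 4 and 46, 53, 62 and 61 in HCD 1 to HCD 4. In CPM this was 2.46, 0.784, 1.98 and 2.64 against 2.76, 3.21, 3.58 and 3.46. The groups did not overlap, but ND 4 and HCD 1 were close, and the log2 fold change of 0.73 ± 0.326 (SE; edgeR adjusted p = 0.338) became 0.47 without ND 2 and 0.40 with a term for ND 2, ND 3 and ND 4.

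The promoters of Abca1 and Arl4c are shown because they were the 2 genes of the set whose RefSeq promoter window (250 bases before to 50 after the start, GRCm38.p6) held a pair of AGGTCA half-sites in direct repeat, spaced by 4 bases, with at most 3 mismatches in the 12 fixed letters. Both strands were searched, and 7 of the 10 genes had a window in the table. The stretches below end before the start site, read 5′ to 3′ on the strand of the gene, and carry the half-sites in capitals. Both lie on the opposite strand, so the letters appear here as the reverse complement.
Abca1, chr4:53159897-53160012: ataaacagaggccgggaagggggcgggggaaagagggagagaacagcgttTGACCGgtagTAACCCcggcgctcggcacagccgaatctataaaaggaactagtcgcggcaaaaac
Arl4c, chr1:88702201-88702316: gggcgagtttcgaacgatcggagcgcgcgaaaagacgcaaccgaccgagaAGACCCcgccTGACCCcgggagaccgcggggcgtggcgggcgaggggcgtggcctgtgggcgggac

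The Abca1 pair spans bases -67 to -52 from the start (chr4:53159947-53159962) and the Arl4c pair bases -75 to -60 (chr1:88702251-88702266). A direct repeat close to the start of Abca1 is a textbook LXR and RXR element. Such matches are common at this tolerance: 24.5% of the 27025 genes in the promoter table held one. With at most 2 mismatches, 0 of the 7 and 3.47% of all genes did. Binding was not measured in this study, so the match describes the letters only.

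Among the genes that handle lipoproteins, Lpl had the largest difference by diet of the 10. Lipoprotein lipase cuts triglyceride from lipoproteins and is made by adipocytes, muscle and macrophages. Lpl (chr8:68880491-68907448, plus strand) had 9.55, 4.10, 7.10 and 5.83 CPM in ND 1 to ND 4 and 12.9, 16.7, 16.4 and 13.9 CPM in HCD 1 to HCD 4, from counts of 68 to 167 and 216 to 285. Every HCD library exceeded every ND library by a clear margin. The means were 6.65 ± 2.3 and 15 ± 1.87 CPM (SD, n = 4), and the log2 fold change was 1.17 ± 0.226 (SE), or 2.25-fold, with an edgeR adjusted p of 0.0723, outside the threshold. DESeq2 gave an adjusted p of 0.000115. Leaving out single libraries moved the log2 fold change between 1.00 and 1.40 and the adjusted p between 0.0589 and 0.173. With a term for ND 2, ND 3 and ND 4, which leaves ND 1 as the reference for HCD, it was 0.65 ± 0.288 (adjusted p = 0.443), and Abca1 became 0.50 ± 0.254 (adjusted p = 0.502).

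Markers of other lipase-making cells were compared with Lpl library by library. Adipoq, an adipocyte hormone, had 3, 4, 0 and 1 counts in ND 1 to ND 4 and 61, 6, 31 and 0 in HCD 1 to HCD 4. Cfd, another adipocyte product, had 11, 8, 0 and 0 counts in ND against 302, 4, 105 and 5 in HCD. Both were at 6 counts or fewer in HCD 2, which had the highest Lpl level, and in HCD 4, with 13.9 CPM of Lpl. Fabp4, another adipocyte gene, was present in every library. It had 114, 169, 125 and 119 counts in ND 1 to ND 4 and 302, 178, 270 and 156 in HCD 1 to HCD 4. Of the 10 adipocyte genes listed, only 3 (Fabp4, Pparg and Lipe) passed the filter on low counts. Their summed level was 19.6 to 24.4 CPM in ND and 20.1 to 37.1 CPM in HCD, which leaves out Adipoq and Cfd. 7 of the 10 were at 0 in at least 1 library, and the part of the adipocyte genes in the Lpl difference was not tested. The 7 of 15 skeletal muscle genes that passed the filter went the other way, with a summed level of 5.76 to 63.1 CPM in ND and 4.60 to 7.79 CPM in HCD. A muscle value of each library was taken over the same 7 genes. With a term for it, the Lpl log2 fold change was 1.19 ± 0.361 (edgeR adjusted p = 0.447) and that of Abca1 0.68 ± 0.246 (adjusted p = 0.503). In the same fit Abcg1 went from 0.73 to 0.29, Nr1h3 from 0.54 to 0.03 and the median of the 10 from 0.44 to 0.28.

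For Apoe and Pltp the diet groups overlapped, unlike those of Lpl. Over the 8 libraries Pltp still varied with Lpl (r = 0.819), while Apoe went the other way (r = -0.685). Apoe (chr7:19696109-19699188, minus strand) had 700.2, 922, 652 and 845 CPM in ND 1 to ND 4 and 645, 572, 795.5 and 658.5 CPM in HCD 1 to HCD 4. The groups overlapped, HCD had the lower mean, and the log2 fold change was -0.22 ± 0.127 (SE; edgeR adjusted p = 0.459). ND 2, the library with the lowest Lpl, Abca1, Abcg1, Pltp, Arl4c, Mylip and Nr1h3, had the highest Apoe. PLTP moves phospholipid between lipoproteins. Pltp (chr2:164839518-164857711, minus strand) had 33.0, 17.2, 26.2 and 22.6 CPM in ND and 33.3, 30.1, 36.1 and 25.1 CPM in HCD. ND 1 lay among the HCD libraries, and the log2 fold change was 0.33 ± 0.186 (adjusted p = 0.46), with 0.19 without ND 2 and 0.50 without ND 1. Pltp shares 495 exonic bases with Ctsa on the opposite strand, and the sources used here do not say whether counting used the strand, so some of its reads may belong to Ctsa. Ctsa itself had 228 to 257 CPM in ND, and in HCD it had 254 to 275 CPM (adjusted p = 0.552, with a log2 fold change of 0.09).

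The other 3 targets varied little or were scarce. Arl4c (chr1:88673125-88702221, minus strand), which encodes a small GTPase, had 4.41, 1.93, 3.52 and 3.26 CPM in ND 1 to ND 4 and 5.04, 7.03, 6.17 and 4.2 CPM in HCD 1 to HCD 4. The groups overlapped at ND 1 and HCD 4, and the log2 fold change was 0.77 ± 0.264 (SE; edgeR adjusted p = 0.223). Mylip (chr13:45389742-45412022, plus strand) encodes the ubiquitin ligase IDOL, which marks lipoprotein receptors for breakdown. Its levels were the tightest of the set, 35.7 to 40.3 CPM in ND and 38.7 to 42.8 CPM in HCD, with a log2 fold change of 0.10 ± 0.0748 (adjusted p = 0.587). Smpdl3a (chr10:57794335-57811830, plus strand), a secreted nucleotide phosphodiesterase, had 20.2 to 23.1 CPM in ND and 20.96 to 29.3 CPM in HCD, and its log2 fold change was 0.20 ± 0.113 (adjusted p = 0.455). Mylip and Smpdl3a thus spanned narrow ranges beside Lpl and Abca1.

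**Figure D3:**
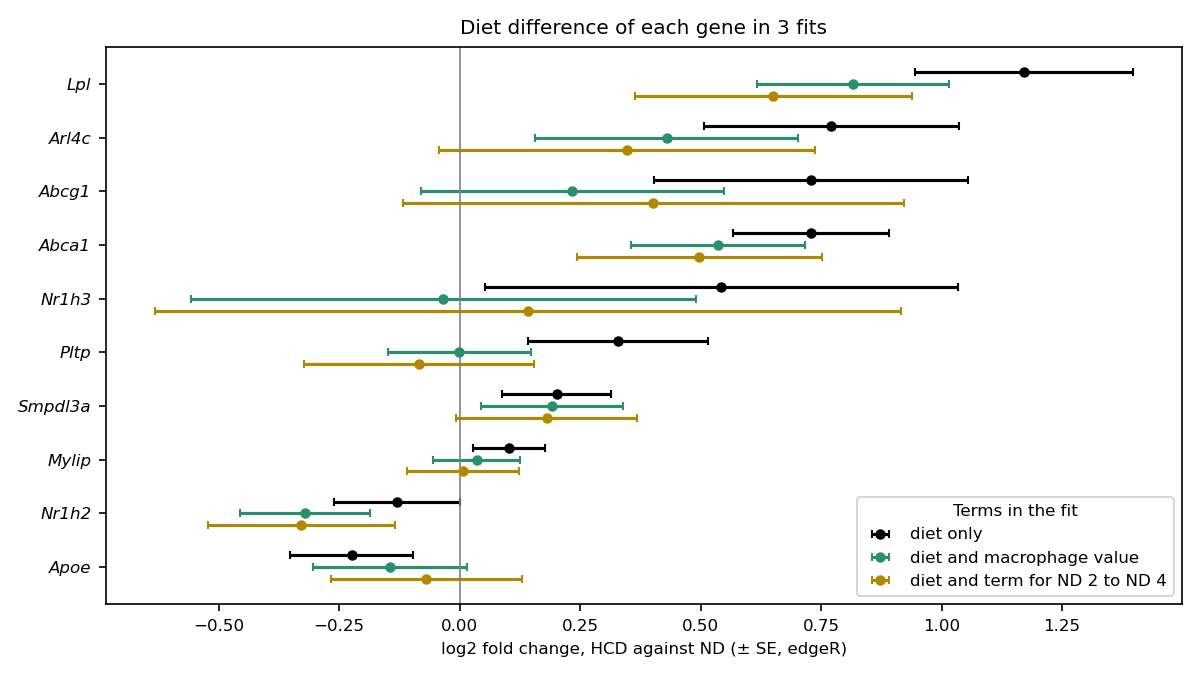
Log2 fold change in HCD against ND of each of the 10 genes by edgeR, with its standard error, from the fit with diet alone and from fits with a macrophage term or a term for ND 2, ND 3 and ND 4. Lpl moves from 1.17 to 0.82 with the macrophage term and to 0.65 with the other, and Pltp moves from 0.33 to about 0.

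To ask whether the 10 genes followed macrophages from tumour to tumour, each library was given a macrophage value, which averages 21 macrophage markers after each marker's log2 CPM is centred on its own mean over the 8 libraries. None of the 10 is among the markers. The values were 0.37, -0.92, -0.38 and -0.10 in ND 1 to ND 4 and 0.28, 0.10, 0.44 and 0.21 in HCD 1 to HCD 4. ND 2 was far below the others, and ND 1 was above every HCD library except HCD 3. The HCD mean exceeded the ND mean by 0.518 (two-sided exact permutation p = 0.114, smallest possible 0.0286); without ND 1 the difference was 0.726 (exact permutation p = 0.0286, the smallest possible). The summed level of the markers was 401 to 780 CPM in ND and 680 to 884 CPM in HCD. In bulk tumour RNA, fewer macrophages and less marker RNA per macrophage cannot be told apart.

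Over the 8 libraries (n = 8), 7 of the 10 genes had a Pearson r above 0.75 with the macrophage value. Abca1 had the lowest r of these, and 6.13% of tested genes had a higher r than Abca1. Without ND 2 alone, r was 0.079 for Nr1h3 and from 0.565 (Abca1) to 0.728 (Mylip) for the others. Leaving out both ND 2 and ND 3 lowered most of them further, and also narrowed the range of macrophage values. Pltp had r = 0.892 (exact permutation p = 0.00469; rho = 0.857, p = 0.0107), and 1.38% of tested genes had a higher r. Without ND 2 and ND 3, the libraries farthest from the median macrophage value, Pltp kept r = 0.864 (n = 6, exact permutation p = 0.025). Abcg1 had r = 0.905 (exact permutation p = 0.00677; rho = 0.69, p = 0.0694), which became 0.247 (p = 0.638) without those libraries.

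The r of the next genes also fell without ND 2 and ND 3. Lpl had r = 0.844 (exact permutation p = 0.00722; rho = 0.643, p = 0.0962) and then 0.594 (p = 0.219). Abca1 had r = 0.754 (exact permutation p = 0.0263; rho = 0.667, p = 0.0831) and then 0.35 (p = 0.503). Arl4c (r = 0.847, rho = 0.714), Mylip (r = 0.831, rho = 0.81) and Nr1h3 (r = 0.788, rho = 0.31) had exact permutation p-values of 0.00895, 0.00754 and 0.0568 for r, and of 0.0576, 0.0218 and 0.462 for rho. Without ND 2 and ND 3, their r was 0.471, 0.593 and 0.185.

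Nr1h2 (r = 0.317, rho = 0.286, exact permutation p = 0.462 and 0.501), Smpdl3a (r = 0.382, rho = 0.524, p = 0.349 and 0.197) and Apoe (r = -0.481, rho = -0.19, p = 0.232 and 0.665) had smaller or negative values. The correlations of the 10 genes were read from those of all 13186 genes, and after Benjamini-Hochberg adjustment over all of them 0 of the 10 and 0% of all genes passed 0.05 (adjusted p from 0.247 to 0.834 for r, and from 0.476 to 0.912 for rho). At an unadjusted exact permutation p under 0.05 for r, 6 of the 10 were positive, where 7.14% of all tested genes were. With each library taken as its deviation from its diet mean, r was 0.844 for Pltp, 0.845 for Abcg1, 0.825 for Lpl, 0.746 for Arl4c and 0.565 for Abca1 (exact permutation p within diet of 0.0503, 0.0625, 0.125, 0.0938 and 0.101). It was 0.736 for Nr1h3, 0.725 for Mylip and 0.666 for Nr1h2 (exact permutation p of 0.224, 0.059 and 0.12), and 0.05 for Smpdl3a and -0.25 for Apoe (exact permutation p of 0.854 and 0.662). After adjustment over all genes these p-values ran from 0.471 to 0.955. ND 2 to ND 4 are 3 libraries and the rest 5, too few to give r within either set.

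**Figure D4:**
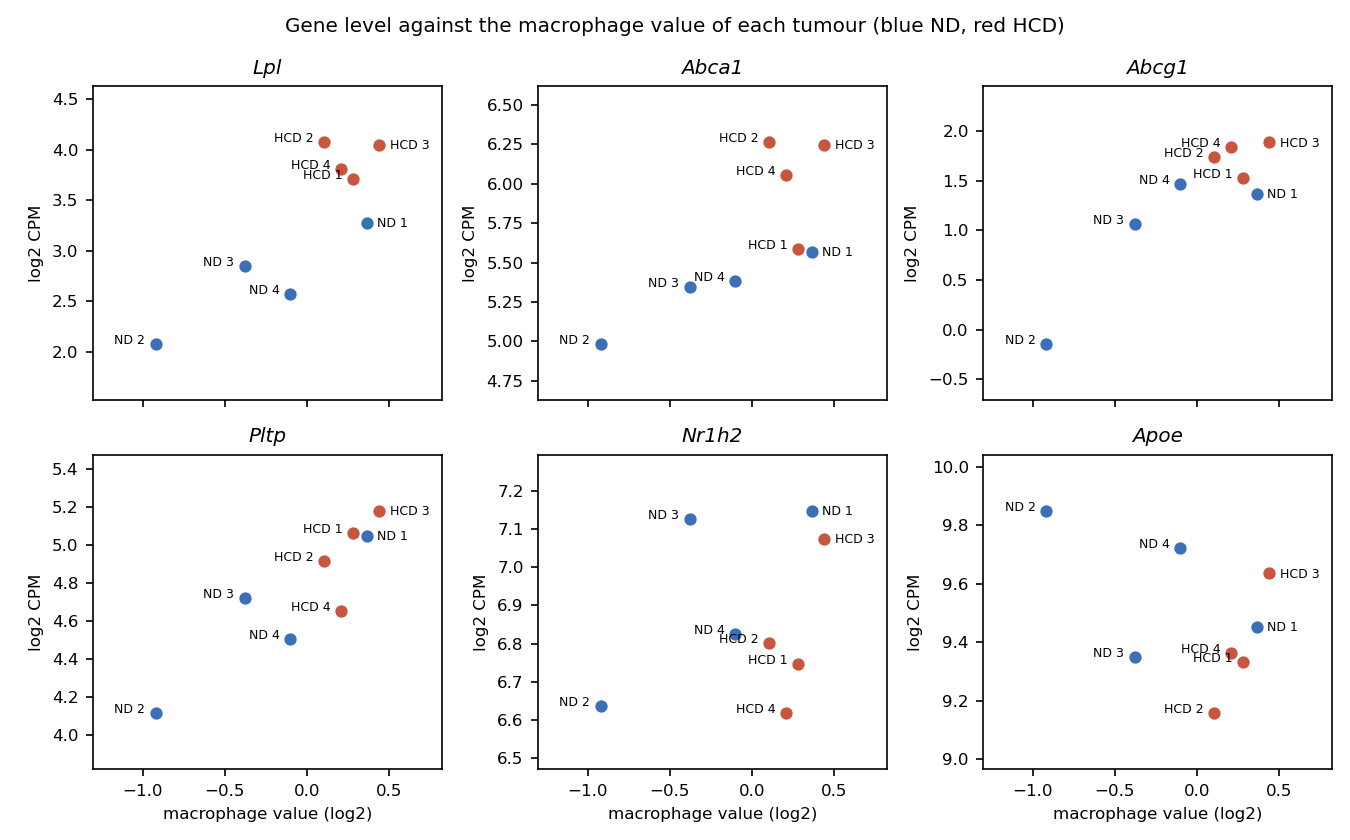
Log2 CPM of 6 of the genes against the macrophage value of each tumour, in blue for ND and red for HCD. ND 2, with the lowest macrophage value (-0.92), is the lowest tumour for Lpl, Abca1, Abcg1 and Pltp and the highest for Apoe.

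In a model with both diet and the macrophage value, the slope of a gene is its log2 change for each unit of that value among tumours of the same diet. 9 of the 10 slopes were positive, as were those of 6733 of all 13186 tested genes. For 5 of the 10 (Pltp, Lpl, Abcg1, Nr1h2 and Arl4c) the edgeR unadjusted p was under 0.05, where 7.85% of all tested genes had one with a positive slope. After adjustment 0 of the 10 passed in edgeR, where 29 genes (0.22%) did. The slopes were 0.69 ± 0.177 for Pltp (SE; edgeR adjusted p = 0.145), 0.79 ± 0.24 for Lpl (adjusted p = 0.201) and 1.14 ± 0.406 for Abcg1 (adjusted p = 0.259). Apoe had a slope of -0.14 ± 0.182 (adjusted p = 0.783). Without ND 2, the slope of Abcg1 was 0.34, that of Nr1h3 went from 1.40 to -0.11 and that of Apoe to 0.30, and 0 of the 10 had an unadjusted p under 0.05, where 4.3% of tested genes had one with a positive slope.

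With the macrophage value in the model, the median log2 fold change of the 10 genes by diet was 0.11, against 0.44 without it, and the genes moved to different degrees. Lpl was at 0.82 ± 0.2 (edgeR adjusted p = 0.145) and Abca1 at 0.54 ± 0.18 (adjusted p = 0.207). Arl4c was at 0.43 ± 0.273 (adjusted p = 0.479) and Abcg1 at 0.23 ± 0.314 (adjusted p = 0.756). Pltp, at -0.00051 ± 0.149, and Nr1h3, at -0.03 ± 0.524, were close to 0. The difference of Nr1h2 was larger than before, at -0.32 ± 0.135 against -0.13 (adjusted p = 0.284).

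Among themselves, the genes fell into a group that moved together and a few that did not (Pearson r of log2 CPM over the same 8 libraries, given as a description). The closest pairs were Lpl with Arl4c (r = 0.944), Lpl with Abca1 (r = 0.938) and Nr1h3 with Abcg1 (r = 0.901). Apoe had a negative r with each of the other 9, from -0.11 with Nr1h2 to -0.70 with Arl4c. Of all genes with a mean of at least 5 CPM, those most like Abca1 over the 8 libraries were Cdc25a (r = 0.982), Bcr (r = 0.971) and Gtpbp1 (r = 0.96). Among those most like Abcg1 were Gatm (r = 0.99) and Znfx1 (r = 0.986), those most like Lpl were Chtf8 (r = 0.97), Arap1 (r = 0.968) and Rcsd1 (r = 0.968), and those most like Apoe were Tead3 (r = 0.972), Rnps1 (r = 0.941) and Ctnnbip1 (r = 0.922).

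Other genes of the pathway are given from lists chosen by function, also with earlier results of these data known. In edgeR, 0 members of each of the next 7 lists passed the adjusted threshold for diet. Of the RXR partners, coactivators and corepressors, 3 of 12 tested were higher and the median log2 fold change was -0.03. Hdac3, the deacetylase of the corepressor complex, had 82.6 ± 11.6 CPM in ND against 94.2 ± 2.91 CPM in HCD (adjusted p = 0.414). Of other LXR targets, several of them in fatty acid synthesis, 6 of 10 tested were higher with a median of 0.03. The desaturase gene Scd2 had a log2 fold change of -0.15 (edgeR adjusted p = 0.61). Acaca, the first enzyme of fatty acid synthesis, had 0.10 (adjusted p = 0.684), and the phospholipid-remodelling gene Lpcat3 had -0.13 (adjusted p = 0.462).

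The enzymes that make or use LXR ligands differed among themselves. Ch25h, which makes 25-hydroxycholesterol, had 1.09, 0, 0.617 and 0.625 CPM in ND 1 to ND 4 and 1.02, 1.76, 2.25 and 1.93 CPM in HCD 1 to HCD 4 (log2 fold change 1.56 ± 0.615, edgeR adjusted p = 0.284). Ebp, an isomerase of late cholesterol synthesis, had a log2 fold change of -0.15 ± 0.102 (adjusted p = 0.558). Of the list, 3 of 6 tested enzymes were higher and 3 lower, with a median of -0.0044. Around efflux, 5 of 17 tested genes of cholesterol transport and storage were higher, with a median of -0.04. Nceh1, a hydrolase that frees stored cholesterol, had 95.7 ± 10.2 CPM in ND and 117 ± 7.89 CPM in HCD (edgeR adjusted p = 0.168), while the HDL receptor gene Scarb1 had 292 ± 47.5 and 240 ± 8.92 CPM (adjusted p = 0.261) and Npc2 398 ± 21.9 and 358 ± 16.02 CPM (adjusted p = 0.299).

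Partners of Lpl and Mylip are listed with them. Of genes that fold, hold or inhibit lipoprotein lipase or take up its products, 6 of 10 tested were higher with a median of 0.07. Cd36, a fatty acid receptor, had 8.61 ± 2.31 CPM in ND and 13.3 ± 2.38 CPM in HCD without overlap (log2 fold change 0.62 ± 0.206, edgeR adjusted p = 0.209). Of the substrates and partners of the IDOL ligase, 2 of 7 were higher, with a median of -0.10. Vldlr, a receptor for triglyceride-rich lipoproteins, had 49.8 to 66.4 CPM in ND and 33.9 to 49.05 CPM in HCD, a difference of -0.42 ± 0.131 on the log2 scale (adjusted p = 0.182). SREBP2 is the factor that raises cholesterol synthesis when sterols are low, and all 21 tested SREBP2 targets were lower in HCD, 13 of them at an unadjusted p under 0.05 (7.49% of all tested genes were), with a median of -0.25 and, for example, -0.38 ± 0.0726 for Fdps (adjusted p = 0.0723). The 13 became 9 without ND 2, 5 with the macrophage term and 3 with either the muscle term or the term for ND 2, ND 3 and ND 4, with 20 or 21 of 21 lower each time. Over the same 8 libraries, the mean differences of the exporters and of the SREBP2 targets thus had opposite signs, and no gene of either set passed adjustment over all genes.

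Of the 21 macrophage markers, 19 were higher in HCD (51.1% of all tested genes were) with a median log2 fold change of 0.47, and 0 passed after adjustment in edgeR (4 higher at an unadjusted p under 0.05, against 7.21% of all genes). Without ND 2, 16 were higher and the median was 0.24. Without ND 1 it was 0.72, and with the term for ND 2, ND 3 and ND 4 it was -0.06. Cd68, the marker with the highest mean, had 148 ± 18.8 CPM in ND and 152 ± 11.6 CPM in HCD (adjusted p = 0.899), and its slope on the macrophage value was -0.11 ± 0.137. Adgre1 (F4/80) had 8.22 ± 2.37 CPM in ND against 12.4 ± 2.32 CPM in HCD (adjusted p = 0.271), and Csf1r 25.7 ± 11.5 and 34.9 ± 9.61 CPM (adjusted p = 0.583). C1qa, a complement gene typical of tissue macrophages, had 112, 39.1, 49.1 and 67.8 CPM in ND 1 to ND 4 and 83.3, 83.1, 130.1 and 91.6 CPM in HCD 1 to HCD 4. Other immune markers were scarce, and their levels are given only over genes that passed the filter on low counts. The 7 of 12 T and NK cell genes that passed summed to 2.83 to 20.9 CPM in ND and 11.6 to 17.6 CPM in HCD. Of these, 6 were higher (median 0.14). The 3 of 10 dendritic and B cell genes that passed summed to 11.1 to 20.8 CPM in ND and 19.3 to 21.4 CPM in HCD. Only 1 of 8 neutrophil genes passed, with 0.482 to 3.95 CPM in ND and 1.70 to 2.88 CPM in HCD. The lowest library was ND 2 for the values of these 3 lists, as it was for Lpl, Abca1 and Abcg1, though the neutrophil value rests on 1 gene.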

How the data were processed

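Gene RNA levels were measured in 8 tumours, 4 for each diet. Per the labels' protocols, RNA was purified on Qiagen columns and sequenced as paired-end Illumina TruSeq libraries. CASAVA 1.8, TopHat2 2.0.9, HTSeq, edgeR and mm10 are named, per the submitters' processing notes, in no stated order. The sources used here give no aligner settings, annotation release or strand setting. Per the file headers, the authors deposited whole-number counts and FPKM for each library and Ensembl gene. Of 34745 genes, 34267 matched a symbol in GENCODE M21 (GRCm38). Library totals ran from 14599222 to 17722093 counts, and raw counts are printed for scarce genes because they set the precision.

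The members and gene lists were chosen with earlier results of these data known. Counts were tested with edgeR 4.0.16 (limma 3.58.1, R 4.3.3), by a quasi-likelihood F-test with TMM factors, its filter (minimum count 10, minimum total 15), diet as the term and Benjamini-Hochberg adjustment over all 13186 genes at 0.05. Each standard error is the size of the fold change (log2) divided by the root of its F. A second fit added the macrophage value (log2 CPM, prior count 2). FPKM served only to order levels. Correlations over 8 libraries used all 40320 pairings, and those of deviations from the diet means all 576 pairings within diet. With libraries left out, all pairings of the remaining libraries were used. The correlation p-values were adjusted over all genes, where the written design adjusted over the 10. Named genes were all 10 members, up to 4 genes of each pathway list with the smallest p, macrophage markers with the highest mean plus Adgre1 and Csf1r, and the 3 genes most like Abca1, Abcg1, Lpl and Apoe. Single-gene results of 5 of these are not reported here. Adipoq, Cfd, Fabp4 and Ctsa were named after their values were seen. Promoters are RefSeq's (GRCm38.p6).

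On simulated counts the diet fit called 48.5%, 71.6% and 100% of genes changed 1.5-, 2- and 4-fold, with 12 false calls among 13035 genes. The slope fit called 11.9%, 43.3% and 87.9%, with 3 false calls among 13032 genes. These counts were drawn for each gene on its own, without a difference shared across a library such as that of ND 2 to ND 4. The rates may therefore not hold for the real libraries. Alternatives were DESeq2 1.42.0 and its size factors, upper-quartile factors, limma-voom, no filter, robust dispersion, terms for the macrophage value, the muscle value or ND 2, ND 3 and ND 4, the replicate block and leaving out each library. For the slope they were also a shorter macrophage list and no diet term, and for the correlation log2(FPKM + 0.1). The exon-union length, the slope with the ND 2, ND 3 and ND 4 term, and the counts of the SREBP2 and macrophage lists under other terms were added after seeing the data.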

Additional observations from a re-analysis of the deposited data

Results flagged for a closer look

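Of 134 groups of 4 libraries that were checked, 10 had 1 library far from the other 3 (a gap to its nearest neighbour past Dixon's 95% critical value, as a share of the group's range), and chance alone gives about 1 in 20. None was among the 10 LXR genes. In ND, Scd2 had 2566 CPM in ND 2 against 1792 to 1902 in the others, Gtpbp1 86.9 CPM in ND 2 against 96.3 to 97.4, and Lrp1 140.4 CPM in ND 1 against 108 to 109.6. In HCD 3, Ube2d3 had 167.8 CPM against 221 to 225 in the others, C1qb 111.2 CPM against 74.9 to 80.5, and Ctnnbip1 10.3 CPM against 7.54 to 7.75. Lmf1 had 49.6 CPM in HCD 2 against 42.5 to 43.5 in the others, and Cd68 134.4 CPM in HCD 1 against 156.9 to 158.7. The skeletal muscle value of HCD 3 was -0.29 against -1.27 to -1.22 in the other HCD libraries. The fibroblast value of HCD 4 was -0.98 against 0.69 to 0.78.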

How the results depend on the processing

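For diet, 24 genes were called. The count was 431 with DESeq2, 93 without the filter, 50 with robust dispersion, 7 with the macrophage term, 5 with a term for ND 2, ND 3 and ND 4 (the ND term), 1 with the muscle term and 0 with the replicate block (1634 genes at an unadjusted p under 0.05). Leaving out 1 library gave 0 to 12 calls, with 0 without ND 4 (1603 unadjusted) and without HCD 4 (1516). The 0 calls among the LXR genes became 2 (Lpl and Abca1) with DESeq2 and without the filter (adjusted p = 0.0182 and 0.0287), and stayed 0 under the other 16 settings. Their median log2 fold change of 0.44 became 0.11 with the macrophage term, 0.16 with the ND term and 0.28 with the muscle term, and lay between 0.20 (without ND 2) and 0.61 (without ND 1) with 1 library left out.

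For the slope, 29 genes were called. The count was 328 without the filter, 134 with the muscle term, 74 without the diet term, 11 with the shorter macrophage list, 7 with the ND term and 1 with the replicate block. Leaving out 1 library gave 0 to 174, the 0 without ND 2 (1270 unadjusted). The macrophage difference of 0.518 lay between 0.297 and 0.726 with 1 library left out, and reached the threshold without ND 1 (0.726, exact permutation p = 0.0286). Promoters with a half-site pair went from 2 to 0 at 2 mismatches.

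Signs changed as follows, and the cause was not tested. With the macrophage term, log2 fold changes were -0.034 for Nr1h3, -0.00051 for Pltp, 0.012 for Scd2, 0.0074 for Ube2d3, -0.011 for C1qa, -0.22 for Csf1r, -0.028 for Znfx1 and 0.00075 for Rnps1. With the muscle term they were 0.053 for Scd2 and 0.026 for Dhcr7. With the ND term they were -0.084 for Pltp, -0.13 for Lrp1, 0.11 for Ube2d3, -0.048 for Cd68, -0.20 for C1qa, -0.036 for C1qb, -0.17 for Csf1r and 0.019 for Rnps1. With 1 library left out, Cd68 lay between -0.025 (without ND 4) and 0.11. The slope of Smpdl3a, 0.02 as reported, was -0.0084 without the filter, -0.21 with the replicate block, -0.0037 with the ND term, and between -0.038 (without HCD 2) and 0.071 (without ND 2) with 1 library left out, negative also without HCD 3 and ND 1. Over the libraries left out, the slope ran from -0.11 to 2.29 for Nr1h3 and from -0.23 to 0.30 for Apoe, and r from -0.080 to 0.577 for Nr1h2 and from -0.659 to 0.088 for Apoe. In these 4, the sign changed without ND 2.

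Same-numbered ND and HCD libraries deviated together with r from -0.07 to 0.11, and those of other numbers with r from -0.28 to 0.20. No pairing by number was seen, but so few pairs cannot exclude it. With the replicate block, 0 of the 10 LXR genes were called for diet (Lpl 1.22, adjusted p = 0.222) or slope. Scarce genes (Nr1h3, Abcg1 and Arl4c) are limited by their counts.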

Other observations

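Endothelial markers were higher in 8 of 12 tested genes with a median log2 fold change of 0.18 and a summed level of 568 to 709 CPM in ND and 609 to 709 CPM in HCD. All 10 tested fibroblast genes were higher in HCD (median 0.60), but their summed level ran from 82.7 to 345 CPM in ND and from 109 to 343 CPM in HCD, with ND 3, ND 4 and HCD 4 low. All 3 tested adipocyte genes (Fabp4, Pparg and Lipe) had a higher mean in HCD (median 0.54), and all 7 tested muscle genes a lower one (median -2.5).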
